A study of Mus musculus with 4 samples.

Results

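The exonic NONCODE lncRNAs are the transcripts of the NONCODE collection (identifiers starting with NONMMUT) that the deposited annotation puts in its class Exonic. They numbered 1902 of 131850 lncRNAs, and 131697 of all lncRNAs came from NONCODE. The cells were C3H10T1/2, a line of mesenchymal stem cells from the mouse. The agent 5-AZA (5-azacytidine) resembles cytidine, is built into nucleic acids and lowers the methylation of DNA. RNA depleted of ribosomal RNA was sequenced from untreated cells, as replicates 1 and 2, and from replicates 101 and 102 of the same line, which received 5-AZA at 20 μM for 72 hours and then grew for 21 days in fresh medium. No culture time was listed for the untreated samples, so the treatment and the time in culture cannot be told apart. There were thus 2 samples in each group, all of 1 established cell line. The labels do not say whether the samples of a group came from separate cultures, so p-values measure only the spread between these samples.

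A long noncoding RNA is a transcript of more than 200 bases without an evident protein product. Such transcripts can lie between genes, within introns or over the exons of a protein-coding gene, on either strand. Those over exons on the same strand share sequence with the mRNA of that gene. Some are spliced precursors of microRNAs or snoRNAs, and others act at the locus where they are made.

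The values were FPKM, fragment numbers corrected for transcript length and for the size of the library. Read counts cannot be taken from them, and the depth behind a value is unknown. Of the 1902 lncRNAs, 766 were listed at 0 in every sample, a further 212 stayed below 1e-06 FPKM in every sample, and 385 others had a mean below 0.1 FPKM over the 4 samples. The remaining 539 had a mean of at least 0.1 FPKM, and changes are given for these. On either side of that limit, NONMMUT036413.2 within Vav2 had a mean of 0.1001 FPKM and NONMMUT029826.2 within Zfp318 a mean of 0.1003 FPKM, while NONMMUT043452.2 within Ppm1l had 0.0997 FPKM and NONMMUT041637.2 at Gnas had 0.0984 FPKM.

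The name of the class was checked against the genes at each place. The submitters' processing notes name the build mm9, but 1984 of the deposited lncRNAs had exactly the span of a RefSeq gene of GRCm38.p6 once 1 was added to the deposited start, so coordinates are given here as GRCm38. Of the 1902 lncRNAs, 497 (26.1%) overlapped the span of a protein-coding gene on the same strand, 225 (11.8%) on the opposite strand and 247 (13.0%) a gene whose strand was not listed, and 933 (49.1%) overlapped none. Among the intergenic NONCODE class (Linc) these shares were 20.8%, 13.1%, 7.80% and 58.3%, and among the class Sense No Exonic they were 25.5%, 11.9%, 14.1% and 48.5%. Only the spans of genes, not their exons, were compared. Overlap with genes therefore set these classes little apart, and the word Exonic is used here as the name of the class, not as a description of each transcript. The class was also unevenly spread, since 1831 of its members (96.3%) were on chromosomes 1 to 3 and 14 to 19, 71 on other chromosomes and 0 on chromosomes 5, 6 and 7. This was shared by Sense No Exonic, with 91.1% on the same chromosomes and 0 on chromosomes 5, 6 and 7, and in part by Antisense, with 70.6% and 0, while Linc had 30.9% there.

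Of the 539 lncRNAs with a level, 256 (47.5%) overlapped a protein-coding gene on the same strand and 136 (25.2%) overlapped none. RefSeq genes of lncRNAs on the same strand were overlapped by 74 of the 539, 47 of them among the 136, and 7 had exactly the span of the RefSeq gene. Reads shared by overlapping transcripts can be divided among them by the quantification, which leaves the level of a lncRNA inside a gene uncertain. On the same strand, 25 of the 539 also overlapped another of them.

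The starts of 49 of the 539 lay in the promoter window of a RefSeq gene, the 250 bases before and 50 bases after its start. These windows held a median of 20 CpG dinucleotides, the sites at which mammalian DNA is methylated, against a median of 7 (quartiles 3 and 20) over all 32817 windows. The motif CAGCTG, an E-box that reads the same on both strands and is bound by myogenic factors such as MyoD, was in 9 of the 49 (18.4%) and in 16.3% of all windows. The windows of 4 lncRNAs described below are shown (RefSeq, GRCm38.p6, 5′ to 3′), because 5-AZA acts on methylation of CpG sites, and the capitals mark each CpG. Gm28321 and Gm32026 are at NONMMUT000836.2 and NONMMUT034015.2, which rose after 5-AZA, Mir99ahg is at the abundant NONMMUT027361.2, and Snhg1 is at NONMMUT033790.2.
Gm28321, chr1:50812225-50812524, plus strand: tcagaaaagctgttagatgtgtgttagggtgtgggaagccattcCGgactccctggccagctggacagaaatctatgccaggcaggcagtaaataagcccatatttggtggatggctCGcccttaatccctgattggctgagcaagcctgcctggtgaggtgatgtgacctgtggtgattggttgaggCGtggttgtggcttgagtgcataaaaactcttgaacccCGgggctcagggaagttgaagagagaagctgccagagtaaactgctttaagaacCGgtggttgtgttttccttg
Gm32026, chr19:16063863-16064162, plus strand: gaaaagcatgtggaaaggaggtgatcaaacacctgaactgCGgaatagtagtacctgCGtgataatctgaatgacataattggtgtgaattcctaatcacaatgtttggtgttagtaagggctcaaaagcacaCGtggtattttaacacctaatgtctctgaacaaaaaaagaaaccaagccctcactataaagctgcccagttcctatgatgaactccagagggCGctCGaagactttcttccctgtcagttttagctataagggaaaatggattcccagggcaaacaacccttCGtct
Mir99ahg, chr16:77329078-77329377, plus strand: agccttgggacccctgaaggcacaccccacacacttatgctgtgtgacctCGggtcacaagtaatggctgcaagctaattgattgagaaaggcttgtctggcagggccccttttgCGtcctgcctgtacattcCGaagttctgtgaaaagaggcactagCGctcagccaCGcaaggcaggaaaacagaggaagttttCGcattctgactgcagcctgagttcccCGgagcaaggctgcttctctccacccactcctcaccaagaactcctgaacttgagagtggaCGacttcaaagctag
Snhg1, chr19:8723237-8723536, plus strand: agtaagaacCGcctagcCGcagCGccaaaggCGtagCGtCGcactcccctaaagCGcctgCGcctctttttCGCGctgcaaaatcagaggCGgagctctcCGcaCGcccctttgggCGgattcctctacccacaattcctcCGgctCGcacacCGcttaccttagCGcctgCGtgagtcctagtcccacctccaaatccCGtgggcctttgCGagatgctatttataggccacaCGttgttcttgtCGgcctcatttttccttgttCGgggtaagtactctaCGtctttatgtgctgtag

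The window of Gm28321 held 5 CpG and 1 CAGCTG, that of Gm32026 held 6 CpG, that of Mir99ahg 8 and that of Snhg1 25, and the last 3 held no CAGCTG. Of all windows, 38.1% had fewer CpG than that of Gm28321, 43.6% fewer than that of Gm32026 and 81.6% fewer than that of Snhg1. A match or its absence describes these letters alone.

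Among the lncRNAs with a level, only NONMMUT027371.2 spanned microRNA genes on its own strand. It is a transcript of 5 exons and 417 bases that overlaps the Mir99ahg gene and spans Mir99a and Mirlet7c-1, the genes of miR-99a and let-7c. Their mature 5p sequences are shown because these small RNAs are encoded within the span of this lncRNA. Whether they lie in its exons was not examined. The capitals mark the seed (bases 2 to 8), which pairs with target mRNAs.
mmu-miR-99a-5p: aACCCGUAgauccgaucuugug
mmu-let-7c-5p: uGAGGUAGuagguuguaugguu

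The seeds of the 2 microRNAs differ. The microRNAs themselves were not measured. The lncRNA was listed at 0.965 and 4.51 FPKM in untreated replicates 1 and 2 and at 5.57 and 2.63 FPKM in 5-AZA replicates 101 and 102, and the groups overlapped. Its log2 difference between the groups was 0.83 (standard error 0.83, adjusted p = 0.674, limma).

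Before the comparison, the cells were checked against marker genes. Of 10 mesenchymal markers, 9 were at 1 FPKM or more in both untreated samples, the exception being Thy1 at 0.578 and 0.785 FPKM, and all 10 were after 5-AZA. Their summed level was 8349 and 8379 FPKM untreated and 4771 and 4658 FPKM after 5-AZA, 1 of the 10 (Thy1) was called higher and 0 were called lower, while over all genes tested 13.1% were called higher and 1.32% lower (limma). Vim, with a log2 difference of -0.87 (adjusted p = 0.00119, limma), and S100a4, with -0.98 (adjusted p = 9.31e-04, limma), fell short of the 2-fold limit. Of 12 skeletal muscle markers, 0 reached 1 FPKM in both untreated samples and 11 did after 5-AZA, where their summed level was 1044 and 1570 FPKM against 2.08 and 2.02 FPKM, and 12 were called higher. The 7 adipocyte markers summed to 45.3 and 30.1 FPKM untreated and to 1094 and 1504 FPKM after 5-AZA, and 5 were called higher. The 6 chondrocyte markers summed to 121 and 108 FPKM untreated and to 29.5 and 46.0 FPKM after 5-AZA, where Comp and Matn3 were called higher and Sox9, Col2a1 and Col9a1 lower. The 5 osteoblast markers summed to 8.06 and 8.28 FPKM untreated and to 9.18 and 9.30 FPKM after 5-AZA. Of these, Bglap was called higher, from almost 0 to 3.85 and 3.72 FPKM, while Runx2 went from 8.06 and 8.28 FPKM to 5.19 and 5.32 FPKM (log2 difference -0.63, adjusted p = 0.0111, limma) and was not called. The 5 immune markers summed to 1.16 and 1.47 FPKM untreated and to 2.33 and 3.69 FPKM after 5-AZA. Nearly all of that was Cd68, which was called higher (log2 difference 1.09, adjusted p = 0.0191, limma), and the other immune markers were at 0.0631 FPKM or less in every sample. The part of these changes in the cells in any result below was not tested, and in RNA of a whole culture fewer cells of a type and less RNA per cell cannot be told apart.

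The 539 lncRNAs were mostly low. Their median level over the 4 samples was 0.554 FPKM (quartiles 0.284 and 1.33), beside 0.461 FPKM for all 24075 lncRNAs that passed the same limit. Only 178 had a mean of at least 1 FPKM and 18 of at least 10 FPKM. The log2 values of the 539 had a Pearson r of 0.815 between the untreated samples and 0.827 between the 5-AZA samples, and of 0.706 to 0.721 between samples of different groups (across lncRNAs, which are not replicates).

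NONMMUT038759.2, a transcript of 4 exons and 637 bases at chr2:98666556-98667267 that overlaps no listed gene, had the highest mean. It was listed at 90.2 and 293 FPKM untreated and at 242 and 336 FPKM after 5-AZA. The untreated samples were farther apart than the groups, and its log2 difference was 0.81 (standard error 0.62, adjusted p = 0.613, limma).

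Several of the abundant transcripts had a single exon and lay inside protein-coding genes. NONMMUT022459.2, of 316 bases within Mbnl2, a gene for a muscleblind splicing regulator, was listed at 143 and 117 FPKM untreated and at 137 and 135 FPKM after 5-AZA. NONMMUT028182.2 within Qk, the gene of the RNA-binding protein quaking, was listed at 45.3 and 44.0 FPKM untreated and at 33.6 and 32.9 FPKM after 5-AZA. NONMMUT029497.2 within Ppp1r10, which encodes a nuclear regulatory subunit of protein phosphatase 1, was listed at 26.9 and 32.8 FPKM untreated and at 22.8 and 22.1 FPKM after 5-AZA. The groups did not overlap at Qk and Ppp1r10 and overlapped at Mbnl2, and none of the lncRNAs in these genes passed the test (adjusted p = 0.884, 0.379 and 0.462 for the lncRNAs in Mbnl2, Qk and Ppp1r10, limma). NONMMUT022620.2 at chr15:5270632-5272944, in no protein-coding gene, was listed at 65.2 and 83.0 FPKM untreated and at 65.8 and 54.8 FPKM after 5-AZA, and its groups overlapped.

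After 5-AZA, 5 of the 539 lncRNAs rose and 0 fell. A lncRNA was called where the adjusted p-value of limma on log2(FPKM + 0.1) was below 0.05 and the change over 2-fold, with adjustment over all 24075 lncRNAs tested. The 5 are 0.928% of the 539, and over all lncRNAs tested 0.984% were called higher and 0.154% lower, 1.14% in all. Before adjustment, p was below 0.05 for 16 higher (2.97%) and 48 lower lncRNAs (8.91%), beside 5.25% and 7.89% over all lncRNAs. The scaling moved this split: centring each sample on its median gave 21 rises against 33 falls, and quantile normalization gave 19 against 41. Over all lncRNAs the same scalings gave 1553 rises against 1225 falls and 1467 against 1525. Both 5-AZA samples were above both untreated samples for 66 of the 539 (12.2%, and 14.6% of all lncRNAs) and below them for 187 (34.7%, and 31.7% of all lncRNAs). Apart from the rises before adjustment, which were fewer, the shares among exonic lncRNAs lay near those of all lncRNAs, and none of these shares was tested against another.

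The median log2 difference was -0.26 over the 539 and -0.23 over all lncRNAs tested, so the 539 lay 0.04 below the rest on this scale, and a difference of a single lncRNA is relative to a set with this median. Both medians depended on the setting, and that of the 539 was -0.10 after centring and -0.11 with a pseudocount of 1 FPKM. All 5 calls were lost when any 1 of the 4 samples was left out, as were all calls among the 24075 lncRNAs, while the log2 differences of the 5 stayed above 4. Without each sample in turn, the unadjusted p was below 0.05 for 20 to 26 higher and for 31 to 47 lower lncRNAs of the 539.

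**Figure D1:**
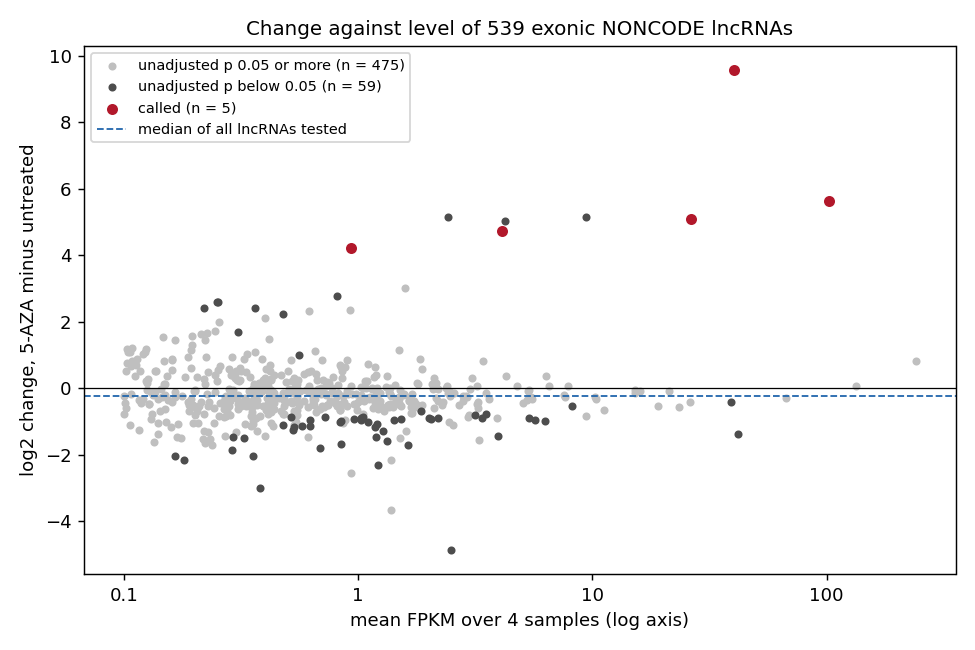
Log2 difference of each of the 539 exonic NONCODE lncRNAs (5-AZA minus untreated, on log2(FPKM + 0.1), vertical axis) against its mean FPKM over 4 samples (horizontal log axis). The 5 called lncRNAs have differences from 4.21 to 9.57, and the dashed line is the median of all lncRNAs tested, -0.23.

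NONMMUT024379.2 had the largest rise of the 539. It is a transcript of 3 exons and 1050 bases on the minus strand at chr15:82592817-82607602 and overlaps no listed gene. It was listed at 1.22e-12 and 0.0108 FPKM in the untreated samples and at 71.7 and 88.8 FPKM after 5-AZA. The untreated samples were almost at 0 and both 5-AZA samples were among the highest of the class. The log2 difference was 9.57 (standard error 0.24, adjusted p = 0.00462, limma), and with other pseudocounts and scalings it ran from 6.33 to 12.44, since its size depends on the pseudocount. The nearest protein-coding genes, Cyp2d12 at 33.4 kb and Cyp2d34 at 8.36 kb, encode cytochrome P450 enzymes and were at or almost at 0 in every sample.

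NONMMUT034105.2 reached the highest level after 5-AZA among the called lncRNAs. It has 2 exons and 1855 bases on the minus strand at chr19:20456925-20459375, and no listed gene overlaps it. Its level rose from 5.64 and 2.69 FPKM to 178 and 223 FPKM, 48.1-fold between the means, and the groups did not overlap. The log2 difference was 5.64 (standard error 0.40, adjusted p = 0.0170, limma), and the call was lost with eBayes without trend. On one side, at 66.3 kb, lies Anxa1, the gene of a calcium-dependent phospholipid-binding annexin, which was at 378 and 348 FPKM untreated and at 361 and 324 FPKM after 5-AZA. On the other side, at 33.2 kb, lies Aldh1a1, the gene of a retinaldehyde dehydrogenase, at 0.301 and 0.227 FPKM untreated and at 1.09 and 0.470 FPKM after 5-AZA. Aldh1a1 had a log2 difference of 1.19 that did not pass (standard error 0.40, adjusted p = 0.0640, limma).

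NONMMUT021800.2 has the exact span of the RefSeq lncRNA gene Gm10845, whose strand was not listed, at chr14:79860521-79869176, with 3 exons and 3389 bases. It rose from 1.51 and 1.33 FPKM to 45.0 and 57.9 FPKM, 36.3-fold between the means. Replicates within each group lay close together, and the log2 difference was 5.08 (standard error 0.22, adjusted p = 0.00619, limma). The neighbouring protein-coding genes Pcdh8, a protocadherin gene, and Olfm4, which encodes the secreted protein olfactomedin 4, had at most 0.0144 FPKM in any sample.

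NONMMUT034015.2 lies within the lncRNA gene Gm32026 at chr19:16064134-16081824, has 2 exons and 1415 bases, and starts in the promoter window shown above. Its level was 0.120 and 0.281 FPKM untreated and at 5.34 and 10.7 FPKM after 5-AZA, 40.1-fold between the means. The log2 difference was 4.73 (standard error 0.49, adjusted p = 0.0435, limma), and this call was lost with a pseudocount of 1 FPKM or of 0.01 FPKM and with eBayes without trend. Its neighbours are Cep78, a gene of a centrosomal protein, with 4.19 and 3.28 FPKM untreated and 5.30 and 5.47 FPKM after 5-AZA, and Gnaq, a gene of a G protein alpha subunit, with 19.3 and 18.3 against 17.1 and 18.3 FPKM. Neither was called (adjusted p = 0.0639 for Cep78 and 0.633 for Gnaq, limma).

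NONMMUT000836.2 has the exact span of the lncRNA gene Gm28321 at chr1:50812475-50817701, with 2 exons and 2458 bases. Its level was 3.51e-04 and 0.0105 FPKM untreated and at 1.87 and 1.83 FPKM after 5-AZA, so the 5-AZA samples were close to each other and the untreated samples almost at 0. The log2 difference was 4.21 (standard error 0.33, adjusted p = 0.0220, limma). It ran from 1.5 to 7.0 with other pseudocounts and scalings, and the call was lost with a pseudocount of 0.01 FPKM. Tmeff2, the gene of a transmembrane protein with an EGF-like domain, lies 83.0 kb away. It was at 0.0462 and 0.0459 FPKM untreated and at 0.114 and 0.215 FPKM after 5-AZA. At these low levels it was not called (log2 difference 0.83, standard error 0.41, adjusted p = 0.193, limma).

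All 5 called lncRNAs had 2 or 3 exons and overlapped no protein-coding gene. The neighbouring genes were looked up after the values of the lncRNAs had been seen, and 6 of these 10 genes passed the limit of 0.1 FPKM for a test. Of the 6, 0 were called (limma), beside 14.4% of all 13199 mRNA genes tested. At an unadjusted p-value of limma below 0.05, 2 were higher, Cep78 and Aldh1a1. The share of all genes at that limit is not given here, so these 2 are not read as a trait of the neighbours.

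Further rises did not pass the adjusted test. NONMMUT040079.2 has 4 exons and lies within Platr3, a lncRNA gene first described in pluripotent cells. Its level was 0.486 and 0.00307 FPKM untreated and at 6.31 and 10.1 FPKM after 5-AZA, and its log2 difference was 5.04 (standard error 0.92, adjusted p = 0.162, limma). NONMMUT033759.2, a single-exon transcript within Atl3, which encodes an atlastin GTPase of the endoplasmic reticulum, was listed at 3.26e-04 and 2.35 FPKM untreated and at 16.7 and 18.6 FPKM after 5-AZA. The untreated samples differed widely, and the log2 difference of 5.16 had a standard error of 1.58 (adjusted p = 0.328, limma). Atl3 itself, with transcripts summed, was at 42.6 and 39.8 FPKM untreated and at 35.8 and 37.0 FPKM after 5-AZA.

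NONMMUT034983.2, within Sh3pxd2a, the gene of a scaffold protein of podosomes, was listed at 0.0253 and 4.48e-04 FPKM untreated and at 7.69 and 1.93 FPKM after 5-AZA (log2 difference 5.15, standard error 0.73, adjusted p = 0.0954, limma). The gene was at 31.6 and 28.5 FPKM untreated and at 38.7 and 42.1 FPKM after 5-AZA. At both Atl3 and Sh3pxd2a the lncRNA was thus far below the gene in the untreated samples.

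NONMMUT035386.2, within Suv39h2, was listed at 0.203 and 0.0776 FPKM untreated and at 1.44 and 1.54 FPKM after 5-AZA. Suv39h2 encodes a methyltransferase of histone H3 lysine 9, a mark of silent chromatin. The lncRNA differed by 2.78 on the log2 scale and was not called (standard error 0.40, adjusted p = 0.0982, limma). Suv39h2 rose from 1.64 and 1.00 FPKM to 5.53 and 7.03 FPKM, a log2 difference of 2.19 (standard error 0.26, adjusted p = 3.32e-04, limma), and was called. Lower levels of the lncRNA than of the gene were found in every sample.

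**Figure D2:**
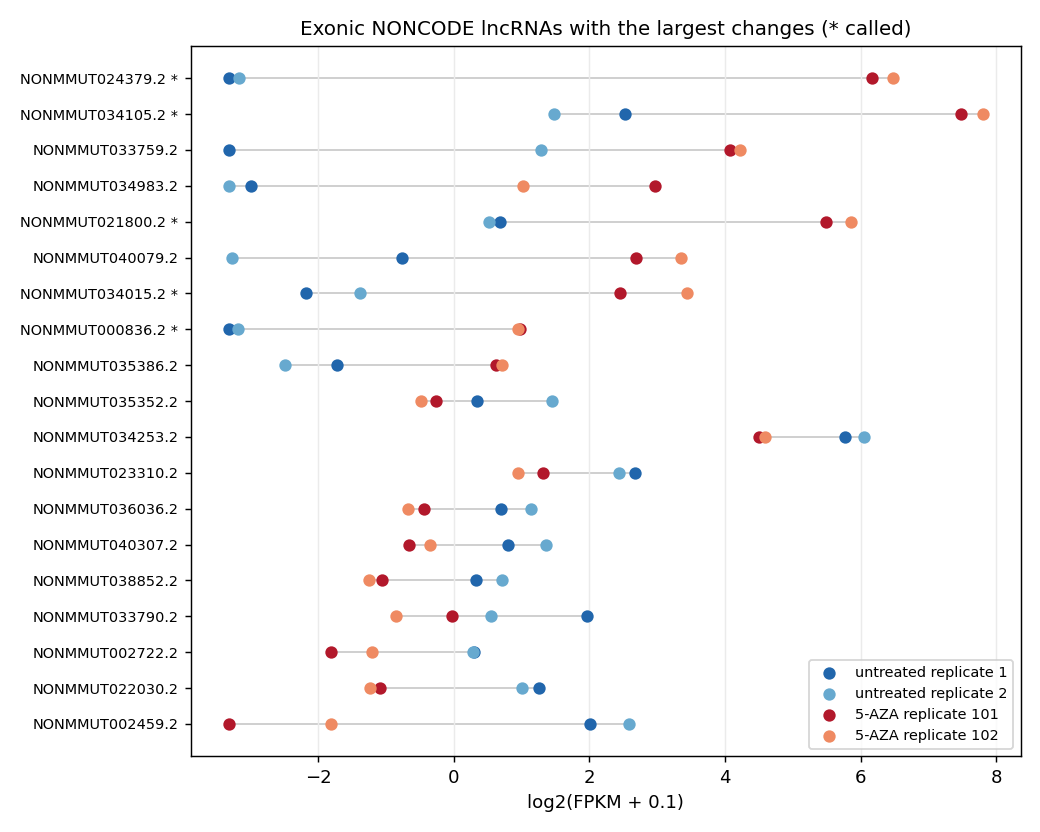
Level of each lncRNA in the 4 samples as log2(FPKM + 0.1) (horizontal axis), for the 9 rises and 10 falls with the largest differences among lncRNAs with an unadjusted p-value below 0.05, groups that do not overlap and a mean of at least 1 FPKM in the higher group. Blue points are untreated and red points 5-AZA samples, and an asterisk marks the 5 called lncRNAs, among them NONMMUT024379.2, which was almost at 0 untreated.

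No fall passed the adjusted test. The largest of the falls was that of NONMMUT002459.2, a single-exon transcript of 3234 bases within Mgat5, which encodes an enzyme that branches N-glycans. Its level was 3.93 and 5.89 FPKM untreated and at 8.81e-05 and 0.184 FPKM after 5-AZA. The log2 difference was -4.87 (standard error 0.61, adjusted p = 0.0717, limma), and with a pseudocount of 1 FPKM it was called. Mgat5 itself was at 6.49 and 6.28 FPKM untreated and at 4.53 and 5.45 FPKM after 5-AZA, a log2 difference of -0.36 (adjusted p = 0.149, limma).

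NONMMUT034253.2 was the most abundant of the lncRNAs with a large fall. It is a single-exon transcript of 429 bases within Pgm5, which encodes a phosphoglucomutase-like protein of cell junctions. It was listed at 54.6 and 65.8 FPKM untreated and at 22.5 and 23.9 FPKM after 5-AZA, 0.385 of the untreated mean. The groups were well apart, and the log2 difference was -1.37 (standard error 0.18, adjusted p = 0.0850, limma). It was called when only lncRNAs with a mean of at least 1 FPKM were tested, and after quantile normalization. Pgm5 was at 61.2 and 65.4 FPKM untreated and at 39.8 and 45.0 FPKM after 5-AZA, a log2 difference of -0.58 (adjusted p = 0.00389, limma) that fell short of the 2-fold limit.

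NONMMUT022030.2 in Tbc1d4, a gene for a Rab GTPase-activating protein of glucose transporter traffic, was listed at 2.28 and 1.90 FPKM untreated and at 0.369 and 0.323 FPKM after 5-AZA (log2 difference -2.29, adjusted p = 0.0662, limma). Tbc1d4 had a log2 difference of -0.82, from 14.3 and 14.1 FPKM to 7.53 and 8.53 FPKM (adjusted p = 0.00176, limma). NONMMUT002722.2 in Arl8a, a gene for a lysosomal GTPase, was listed at 1.13 and 1.11 FPKM untreated and at 0.186 and 0.33 FPKM after 5-AZA. Its groups were apart, with a log2 difference of -1.79 (adjusted p = 0.188, limma).

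At Abtb2, Arhgap21 and Ralgapa2 the lncRNA and the gene were both lower in the 5-AZA samples. NONMMUT038852.2 in Abtb2, a gene for a protein with ankyrin and BTB domains, was listed at 1.16 and 1.54 FPKM untreated and at 0.380 and 0.321 FPKM after 5-AZA (log2 difference -1.67, adjusted p = 0.169, limma). Abtb2 was called lower, with a log2 difference of -1.11 (adjusted p = 6.70e-04, limma). Arhgap21, the gene of a GTPase-activating protein, holds NONMMUT036036.2, which was listed at 1.52 and 2.10 FPKM untreated and at 0.634 and 0.527 FPKM after 5-AZA. Its log2 difference was -1.48 (adjusted p = 0.20, limma), and the gene was called lower, with a log2 difference of -1.11 (adjusted p = 2.83e-04, limma). Ralgapa2 encodes a subunit of a Ral GTPase-activating complex. NONMMUT040307.2 within it differed by -1.59 (adjusted p = 0.202, limma) and the gene by -0.97 (adjusted p = 9.37e-04, limma).

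NONMMUT033790.2 starts at the first base of Snhg1, a host gene of snoRNAs, whose promoter window is shown above. It was listed at 3.81 and 1.36 FPKM untreated and at 0.881 and 0.452 FPKM after 5-AZA. The untreated samples were far apart, and the log2 difference of -1.70 had a standard error of 0.61 (adjusted p = 0.371, limma). NONMMUT035352.2, a transcript of 4 exons that spans the predicted gene Gm7102 and 2 pseudogenes on chromosome 19, was listed at 1.16 and 2.62 FPKM untreated and at 0.731 and 0.612 FPKM after 5-AZA (log2 difference -1.27, adjusted p = 0.373, limma).

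Several genes held more than 1 of the lncRNAs. Zfpm2, which encodes FOG2, a cofactor of GATA transcription factors, held 7 members of the class, and 6 of them had a level. The strand of Zfpm2 was not listed, so the strand of these lncRNAs could not be compared with that of the gene. All 6 were single-exon transcripts, and both 5-AZA samples were below both untreated samples for each, as for 31.7% of all lncRNAs tested. NONMMUT023310.2 had the largest difference among them, with 6.27 and 5.31 FPKM untreated and 2.40 and 1.83 FPKM after 5-AZA (log2 difference -1.42, standard error 0.25, adjusted p = 0.155, limma). NONMMUT023314.2 had the highest level, with 7.96 and 8.79 FPKM untreated and 5.05 and 3.40 FPKM after 5-AZA. The log2 differences of the 6 ran from -1.42 to -0.70, and 5 had an unadjusted p-value below 0.05, but 0 were called. They ran from -1.25 to -0.53 after centring and from -1.32 to -0.52 after quantile normalization.

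Zfpm2 itself was at 6.08 and 6.19 FPKM untreated and at 3.87 and 3.63 FPKM after 5-AZA. Its log2 difference of -0.70 (standard error 0.15, adjusted p = 0.0112, limma) fell short of the 2-fold limit. The levels of the 6 lncRNAs lay on both sides of that of the gene. They share a gene and may share its reads, so they are not independent of each other or of it.

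**Figure D3:**
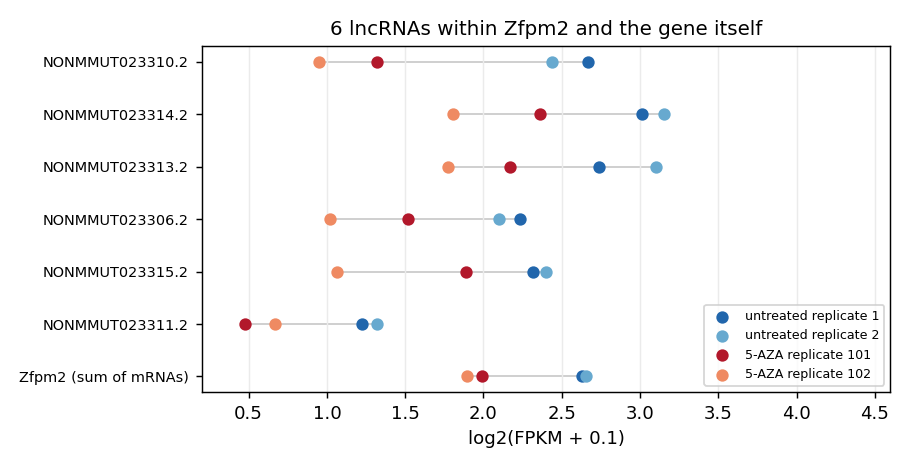
Levels of the 6 exonic NONCODE lncRNAs within Zfpm2 and of the summed Zfpm2 mRNAs in the 4 samples, as log2(FPKM + 0.1) (horizontal axis). In every line both 5-AZA samples (red) lie to the left of both untreated samples (blue), with log2 differences from -1.42 to -0.70.

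Among the other genes with several of the lncRNAs, R3hdm1 held 5, while Gpc6, a glypican gene whose strand was not listed, and Tbc1d5 held 4 each. Each of these 13 had a negative log2 difference, also after centring and quantile normalization. Of all 392 single-exon lncRNAs of the class with a level, 285 were negative as deposited, 236 after centring and 245 after quantile normalization. Only 1 of the 13, in Tbc1d5, had an unadjusted p-value below 0.05, and the medians were -0.50, -0.55 and -0.58 in R3hdm1, Gpc6 and Tbc1d5. The genes themselves had log2 differences of -0.16, -0.47 and -0.25, and 0 of the 3 were called. Efna5, the gene of the membrane-bound ligand ephrin-A5, held 3 lncRNAs with differences from 0.06 to 2.24, all positive under each scaling. Gsk3b and Mecom held 3 each with a level, all negative under each scaling. Pcdh9, Phf21a, Qk and Zbtb20 also held 3 each with a level, and in each of these genes both signs were found. The 3 lncRNAs in Rfx3 had differences between -0.14 and 0.17, and 2 of them were negative as deposited and 0 after centring.

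Known lncRNA genes held others. Mir99ahg held 5 lncRNAs with a level. NONMMUT027361.2 has the exact span of this gene (chr16:77329328-77558428, 5 exons, 3151 bases) and was listed at 25.6 and 29.7 FPKM untreated and at 21.8 and 16.3 FPKM after 5-AZA. NONMMUT027377.2 was listed at 23.4 and 21.5 FPKM untreated and at 18.6 and 12.6 FPKM after 5-AZA. Their log2 differences, -0.55 and -0.55, did not pass (adjusted p = 0.423 and 0.462, limma), and the groups did not overlap in either. Airn, the RNA that is made from the paternal copy of its imprinted region and silences Igf2r there, held 3. The highest of them, NONMMUT028246.2, was listed at 3.32 and 4.15 FPKM untreated and at 2.59 and 3.00 FPKM after 5-AZA. Its log2 difference was -0.40 (adjusted p = 0.553, limma). NONMMUT028256.2 had the largest difference of the 3, with 1.23 and 1.52 FPKM untreated and 0.663 and 0.703 FPKM after 5-AZA. It was not called (log2 difference -0.90, adjusted p = 0.326, limma). All 3 differences were negative, also after centring and quantile normalization. NONMMUT027085.2 in Gm33797 was listed at 22.2 and 21.3 FPKM untreated and at 23.4 and 17.96 FPKM after 5-AZA, and its groups overlapped.

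The lncRNAs inside genes were set beside the gene on the same strand. This could be done for 241 lncRNAs in 198 genes, and both values of a pair come from the same samples and may share reads. The median log2 difference was -0.38 over these lncRNAs, of which 211 had a single exon. It was -0.23 over all lncRNAs tested and -0.26 over all single-exon lncRNAs tested. Over the 198 genes' pairs the median was -0.09, beside a median of 0.05 over all 13199 genes tested. Only 5 of the 241 lncRNAs had a higher mean than their gene. Of the 198 genes, 11 were called (5.56%, and 14.4% of all genes), 5 higher and 6 lower, and these hold 12 of the lncRNAs.

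Col8a1, which encodes a short-chain collagen, had the largest difference among the 11. It rose from 0.294 and 0.314 FPKM to 21.1 and 24.2 FPKM, a log2 difference of 5.81 (adjusted p = 3.13e-07, limma). NONMMUT027018.2 within it was listed at 0 in both untreated samples and at 0.447 and 0.555 FPKM after 5-AZA. Lifr, the receptor gene of leukaemia inhibitory factor, was called higher by 1.57 (adjusted p = 1.20e-05, limma), and NONMMUT022664.2 was listed at 0.0508 and 0.0792 FPKM untreated and at 0.450 and 0.201 FPKM after 5-AZA. Grk5, a kinase gene of G protein-coupled receptors, was called higher by 1.24 (adjusted p = 9.57e-04, limma), while NONMMUT035331.2 was at 0.666 and 2.11 FPKM untreated and at 0.935 and 1.26 FPKM after 5-AZA.

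Among the genes called lower, Erg, which encodes an ETS transcription factor, fell from 4.76 and 4.06 FPKM to 0.958 and 1.54 FPKM (log2 difference -1.77, adjusted p = 0.00108, limma). NONMMUT027849.2 within it was listed at 0 in untreated replicate 1 and both 5-AZA samples and at 0.675 FPKM in untreated replicate 2. Slc5a3, the gene of a myo-inositol transporter, fell from 193 and 193 FPKM to 86.2 and 91.1 FPKM, and NONMMUT027724.2 within it was at 0.550 FPKM or less in every sample. None of these lncRNAs was called.

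**Figure D4:**
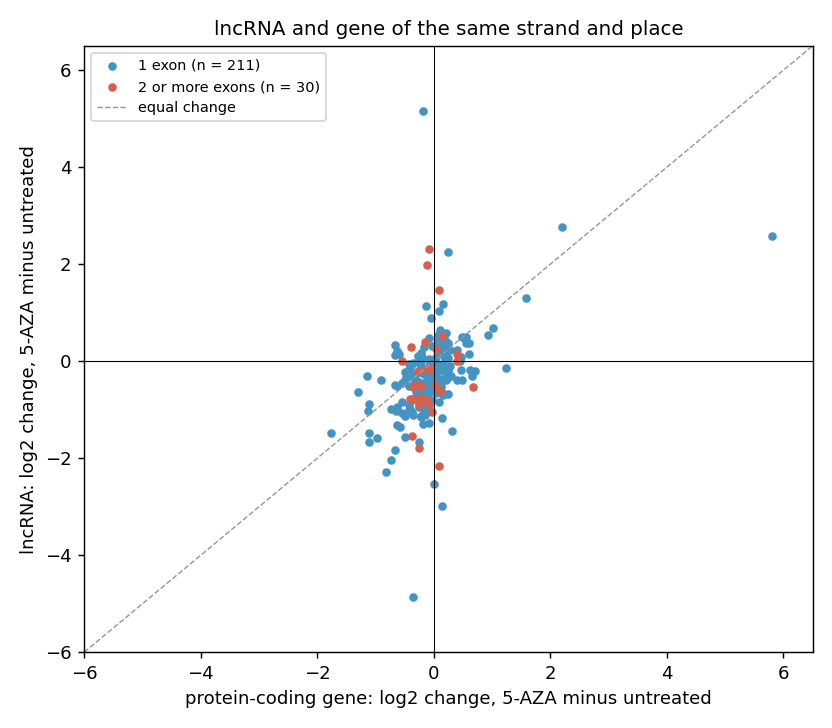
Log2 difference (5-AZA minus untreated) of 241 exonic NONCODE lncRNAs (vertical axis) against that of the protein-coding gene of the same strand and place (horizontal axis), with 211 single-exon lncRNAs in blue and 30 of 2 or more exons in red. The dashed line marks equal differences, Col8a1 is the point at 5.81 on the horizontal axis and the lncRNA in Atl3 that at 5.16 on the vertical axis.

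By exon count, the share of lncRNAs with a level was 46.6% of the 841 with 1 exon, 15.5% of the 567 with 2, 13.5% of the 252 with 3, 11.4% of the 175 with 4 to 5 and 7.46% of the 67 with 6 or more. Single-exon transcripts thus made up 392 of the 539. The median level of those that passed the limit was 0.655 FPKM for 1 exon, 0.388 FPKM for 2 and 0.350 FPKM for 3. It was 1.23 FPKM for the 20 lncRNAs of 4 to 5 exons and 0.899 FPKM for the 5 of 6 or more. NONMMUT047689.2, with 9 exons over Gm31905 on chromosome 4, was the most abundant of the last group, at 3.01 and 3.22 FPKM untreated and 3.28 and 3.30 FPKM after 5-AZA.

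Of the 392 single-exon lncRNAs 0 were called, beside 0.759% of all 17664 single-exon lncRNAs tested. The unadjusted p of limma was below 0.05 for 9 higher (2.30%) and 40 lower ones (10.2%). Over all single-exon lncRNAs these shares were 3.96% and 8.32%. Of the 88 with 2 exons 3 were called higher, and of the 34 with 3 exons 2 were, where 1.98% and 2.08% of all lncRNAs with these exon counts were called. The median log2 difference was -0.30 for 1 exon and -0.12 for 2, and -0.26 and -0.15 for all lncRNAs with 1 and 2 exons. Centring adds 0.17 to each difference, and the medians were then -0.13 for 1 exon and 0.04 for 2 exons, so the sign of the second depended on the scaling. No test was made between the classes of exon count, since transcripts are not replicates.

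By length, 9.46% of the 317 lncRNAs below 500 bases had a level, 17.6% of the 460 from 500 to below 1000 bases, 33.1% of the 517 from 1000 to below 2000, 44.3% of the 519 from 2000 to below 4000 and 30.3% of the 89 of 4000 or more. The median levels of those that passed the limit lay between 0.401 FPKM (500 to below 1000 bases) and 0.669 FPKM (2000 to below 4000 bases). The differences were most spread out below 500 bases, where the quartiles were -1.45 and 0.92, and least in the 27 of 4000 bases or more, where they were -0.60 and -0.14. The most abundant of these long transcripts was NONMMUT000076.2 within Pcmtd1, at 8.93 and 7.72 FPKM untreated and 7.53 and 6.46 FPKM after 5-AZA. Of the 171 lncRNAs from 1000 to below 2000 bases 3 were called, and of the 230 from 2000 to below 4000 bases 2 were, where 1.04% and 0.853% of all lncRNAs of these lengths were called. Below 500 bases 0 of 30 were called, beside 2.56% of all lncRNAs of that length. The unadjusted p of limma was below 0.05 for 3 rises (10%) and 5 falls (16.7%) of these 30, beside 9.04% and 7.75% of all lncRNAs of that length.

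**Figure D5:**
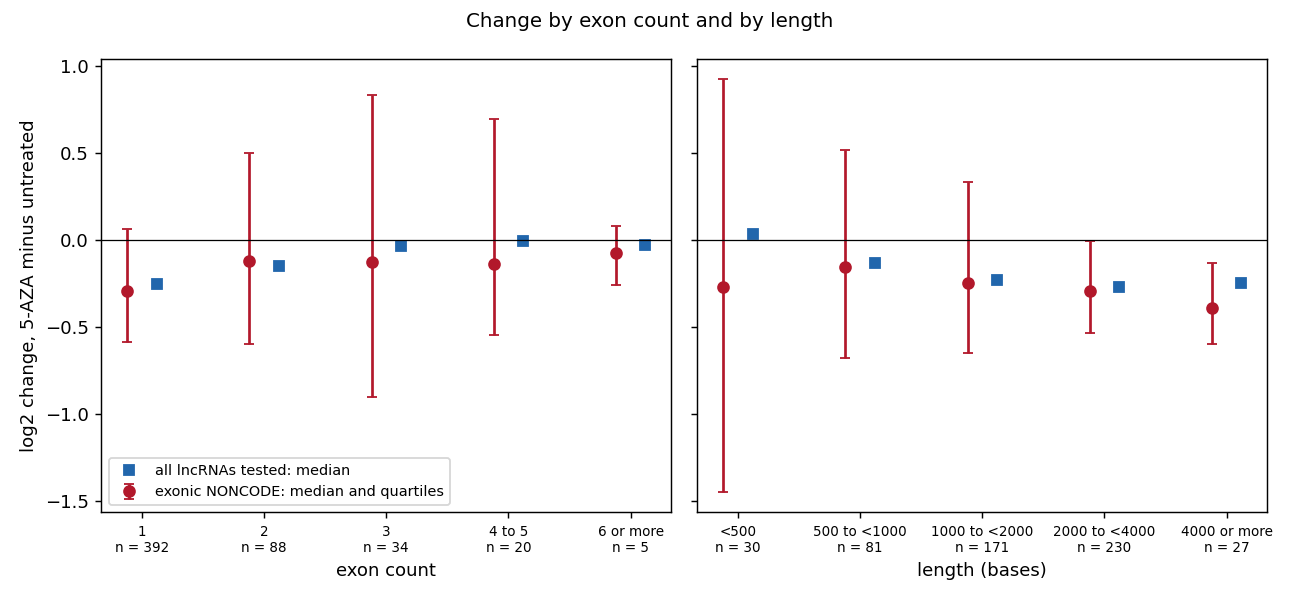
Median log2 difference (5-AZA minus untreated, vertical axis) with its quartiles (bars) for the 539 exonic NONCODE lncRNAs in classes of exon count (left) and length in bases (right), beside the median of all lncRNAs tested in the same class (blue squares). The median was -0.30 for 1 exon and -0.12 for 2 exons, and the quartiles were widest below 500 bases.

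In each sample, 184 and 190 exonic lncRNAs were at 1 FPKM or more in untreated replicates 1 and 2 and 154 and 145 in 5-AZA replicates 101 and 102. The difference of the means was 37.5, larger than the spread within the groups, and the exact two-sided permutation test gave p = 0.33, the smallest p that 2 samples against 2 allow. Over all lncRNAs the numbers at 1 FPKM or more were 7179 and 6931 untreated and 6415 and 6007 after 5-AZA, lower as well. At 10 FPKM or more the order turned, with 16 and 15 exonic lncRNAs untreated and 19 and 18 after 5-AZA.

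The FPKM of all exonic lncRNAs summed to 1172 and 1377 untreated and to 1480 and 1570 after 5-AZA. Of this, the 10 lncRNAs with the highest means held 458 and 670 FPKM untreated and 839 and 991 FPKM after 5-AZA. All other members together summed to less in both 5-AZA samples than in both untreated samples. The sums of all members made up 0.795% and 0.917% of the FPKM of all lncRNAs in the untreated samples and 0.873% and 0.703% in the 5-AZA samples (exact two-sided permutation test, p = 0.67). The groups overlapped. Without NONMMUT020725.2, a lncRNA of another class that stood apart in 5-AZA replicate 102, the shares were 0.816% and 0.942% untreated and 0.892% and 0.906% after 5-AZA.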

How the data were processed

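Total RNA of 2 untreated and 2 5-AZA samples of C3H10T1/2 was sequenced from stranded libraries depleted of ribosomal RNA. The authors deposited FPKM values per transcript for mRNAs and lncRNAs, with the class, length, exon count and position of each lncRNA, and their circRNA values were not used here. The submitters' processing notes name Trimmomatic, HISAT2, Bowtie2 2.2.9, eXpress 1.5.1 and mm9. The coordinates matched RefSeq genes of GRCm38.p6, with the start counted from 0 (length equalled end minus start in all 60976 single-exon lncRNAs), and 1 was added to each start. RefSeq tables gave gene names, spans, promoter windows and microRNAs. The strand of some genes was not listed, and exons of genes were not compared. The number of sample columns not used for lack of a label was 0.

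The class was taken as listed. All lncRNAs with a mean of at least 0.1 FPKM were fitted together on log2(FPKM + 0.1) by lmFit and a trended eBayes of limma 3.58.1 (R 4.3.3), with Benjamini-Hochberg adjustment, and mRNAs were summed per gene and fitted likewise. The study used DESeq, which needs counts and could not be applied to FPKM. A change on the log2(FPKM + 0.1) scale understates that of low transcripts. Values per sample were compared with an exact permutation test, for which 2 samples against 2 cannot reach p < 0.05. The fit was tried on simulated data with known changes, which were larger than most of those reported here. That trial therefore does not cover changes of the smaller sizes.

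Named lncRNAs were those called, the 10 largest rises and 10 largest falls with an unadjusted p-value below 0.05, groups that did not overlap and a mean of at least 1 FPKM in the higher group (9 rises met this), the 10 highest means, the highest of each class of exon count and length, those on either side of the limit, and any of 8 lncRNAs chosen for qRT-PCR, of which 0 were in the class. Others were chosen after their values were seen: lncRNAs in genes that hold several, in Mir99ahg, Airn and Gm33797, and in genes that were called. The members, lists and tests were chosen with earlier results of these data known. Other pseudocounts, limits, scalings, eBayes without trend and the omission of each sample were tried as alternatives.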

Additional observations from a re-analysis of the deposited data

How the results depend on the processing

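The number of exonic lncRNAs called, 5 as deposited, was 5 with a pseudocount of 1 FPKM (4 of the same lncRNAs), 3 with 0.01 FPKM, 5 with a limit of 1 FPKM (4 of the same), 5 after centring (all the same), 6 after quantile normalization (5 of the same) and 3 with eBayes without trend. It was 0 without a limit on low values, where 1136 were tested and the unadjusted p of limma was below 0.05 for 25 higher and 73 lower ones. It was 0 without each of the replicates in turn (lowest 0, highest 0), where these numbers were 20 to 26 and 31 to 47. A group left with 1 sample was assumed to vary like the other, and fewer samples were fitted. The median log2 difference, -0.26, was -0.11 with a pseudocount of 1 FPKM, -0.32 with 0.01 FPKM, 0 without a limit, -0.34 with a limit of 1 FPKM, -0.10 after centring and -0.15 after quantile normalization, and ran from -0.31 to -0.19 without each replicate (-0.31 without 5-AZA replicate 101). The difference in the number of lncRNAs per sample, -37.5 at 1 FPKM, was 7 at 0.1 FPKM and 3 at 10 FPKM, and ran from -42 to -33 without each replicate. That in the share of summed FPKM, -0.068 percentage points, was 0.020 without NONMMUT020725.2 and ran from -0.15 to 0.017 without each replicate. Of the 15 genes at the place of lncRNAs named for their change or level, 3 were called, beside 14.4% of all genes tested. The number was 3 with a pseudocount of 1 FPKM and 4 after centring. It also depended on the replicate left out, an alternative chosen after seeing the data. For the 19 lncRNAs named for a change, 172 alternative values kept direction and side of the threshold, 30 of the called lost the call, 3 others gained it and 0 changed sign. The cause of these changes was not tested. The untreated samples are numbered 1 and 2 and the 5-AZA samples 101 and 102. The labels do not say whether any of them belong together, so no paired analysis was made. The unknown depth of FPKM values limits what can be said of lncRNAs below 1 FPKM.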

Other observations

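Among the lncRNAs below the level required for naming, some were listed at 0 in both untreated samples and above 0.4 FPKM in both 5-AZA samples, chosen here after their values were seen. NONMMUT027807.2, of 4 exons on chromosome 16 and in no protein-coding gene, was listed at 0.498 and 0.511 FPKM after 5-AZA (adjusted p = 0.155, limma). NONMMUT032226.2, of 1 exon on chromosome 18, was listed at 0.452 and 0.425 FPKM (adjusted p = 0.186, limma). Neither was called, and their levels are too low to say more.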
